A study of Mus musculus with 24 samples.

Results

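Pla2g7, Atp10d, Prdx2 and Rnf41 are 4 genes that differed between STAT6 KO and WT bone marrow-derived macrophages kept without IL-4 and without ligand. They were selected on that difference at rest, so the values at rest are given here as a description with no test. All 8 probe sets that carry 1 of these symbols alone were taken, 4 for Rnf41, 2 for Prdx2 and 1 each for Pla2g7 and Atp10d, out of 45037 probe sets and 18193 named genes. The question was whether the genotype difference held when the cells received IL-4, the peroxisome proliferator-activated receptor γ (PPARγ) agonist Rosiglitazone (RSG), or both.

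Gene expression was measured on 24 Affymetrix whole-genome mouse arrays, in 8 groups of 3. Marrow of 3 WT mice (mice 1 to 3) and 3 mice lacking STAT6 (mice 4 to 6), all labelled C57Bl/6, was cultured for 10 days with 20 ng/ml M-CSF, which all groups received. The number that opens each sample's label was taken as the mouse, so that each mouse has 4 cultures. These were control or IL-4-treated (20 ng/ml), each with DMSO:ethanol vehicle or 1 µM RSG. That cultures with the same number came from the same mouse is an inference from the labels. The KO mice came from The Jackson Laboratory and lack STAT6 in all cells, not in macrophages alone. Ages were not given in the sources used here.

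STAT6 is the transcription factor that IL-4 activates through the IL-4 receptor and Janus kinases; once phosphorylated it enters the nucleus and binds paired half-sites in promoters and enhancers. In macrophages it drives alternative activation. Pla2g7 encodes the secreted platelet-activating factor acetylhydrolase, which cleaves platelet-activating factor (PAF) and oxidised phospholipids and is made largely by macrophages. Atp10d encodes a P4-ATPase, a family of membrane pumps that flip lipids between the leaflets of the bilayer. Rnf41 encodes a RING-type ubiquitin ligase, also called NRDP1, that acts on receptors and on adaptors of innate immune signalling. Prdx2 encodes a cytosolic peroxiredoxin that reduces hydrogen peroxide with the help of thioredoxin and is abundant in red cells.

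The promoters of 3 of the 4 genes were at hand in RefSeq sequence of build GRCm38.p6, as windows of 250 bases before to 50 bases after the annotated start. They are shown for Pla2g7 and Rnf41, which were lower in STAT6 KO cells in most conditions, because the paired half-sites to which STAT proteins bind can be looked for in them. Capitals mark the only match to TTC and GAA spaced by 3 bases, which lies in the Pla2g7 promoter and begins 145 bases before the start. The Pla2g7 window is chr17:43568201-43568500, + strand, and the Rnf41 window is chr10:128411366-128411665, + strand.
Pla2g7: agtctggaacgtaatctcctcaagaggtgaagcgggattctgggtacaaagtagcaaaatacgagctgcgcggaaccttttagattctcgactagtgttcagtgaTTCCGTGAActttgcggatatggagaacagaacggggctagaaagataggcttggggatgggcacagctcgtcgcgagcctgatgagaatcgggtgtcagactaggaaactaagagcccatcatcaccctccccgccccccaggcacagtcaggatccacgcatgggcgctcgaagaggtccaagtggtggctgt
Rnf41: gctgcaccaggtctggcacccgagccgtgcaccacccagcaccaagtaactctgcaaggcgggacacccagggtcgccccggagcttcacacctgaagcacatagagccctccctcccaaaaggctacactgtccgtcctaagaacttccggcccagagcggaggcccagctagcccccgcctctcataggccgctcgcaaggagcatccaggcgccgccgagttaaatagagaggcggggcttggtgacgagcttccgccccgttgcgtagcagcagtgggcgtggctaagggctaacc
The pattern reads the same on both strands, and 8.3% of 32851 promoters of this length hold it. The wider form, with 4 bases between TTC and GAA, was in none of the 3 promoters, Prdx2 included, and in 6.95% of all. A match is a string of letters and not a shown binding site. Atp10d was named only.

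The values are ratios of each array to the probe set's own median, given here as log2 ratios, so 0 is the median over arrays and the scale says nothing of how abundant a transcript was. Differences are KO minus WT means of 3 mice on that scale, with the standard error (SE) of a limma fit over all arrays. A probe set was called where the Benjamini-Hochberg adjusted p over all 45037 probe sets was under 0.05 and the difference was at least 1.5-fold. The targeted gene went with its labels, as both Stat6 probe sets separated the genotypes on every array with KO minus WT differences from -2.46 to -2.77 on the log2 scale. The contrasts tested below use no mean of the resting groups. Their SE and p still pool the spread of all 24 arrays, the resting ones that chose the genes included. All arrays come from the same 6 mice as numbered by label.

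At rest, 49 probe sets were called, 0.109% of those tested, 37 of them lower in KO cells and 12 higher, and 6 of the 8 probe sets of the 4 genes were among them. Nothing is read from that share, since the same contrast chose the genes. Among the probe sets of the 4 genes, the call nearest to the limit was Rnf41 1455763_at, with a difference of -1.89. The nearest named probe set outside was Ptx3 1418666_at at -3.87. The 2 probe sets of the 4 genes that stayed outside were Prdx2 1418506_a_at, at 0.02, and Rnf41 1453633_a_at, at -1.66.

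Pla2g7 was about 3 to 4 times lower in STAT6 KO macrophages in each condition outside rest. Its log2 ratio at rest was 0.06, 0.37 and 0.92 in WT mice and -1.72, -1.72 and -1.64 in KO mice. With RSG alone it was 0.64, 0.60 and 1.19 in WT cells and -1.15, -1.23 and -1.16 in KO cells. With IL-4 alone it was 1.29, 1.22 and 1.56 in WT cells and -0.48, -0.11 and -0.06 in KO cells. The genotypes did not overlap in any condition outside rest, where the lowest WT value was 0.60 and the highest KO value -0.06. They did not overlap at rest either, but that comparison chose the gene. Shares of all probe sets without overlap are given below. In bulk cultures such as these, fewer cells of a type and less RNA per cell cannot be told apart. With IL-4 and RSG together the WT values were 1.32, 1.35 and 1.71 and the KO values -0.54, -0.32 and -0.27.

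The Pla2g7 difference was -2.14 at rest. It was -1.99 ± 0.20 (SE, n = 3 per group) with RSG (limma adjusted p = 8.75e-05), a 3.99-fold lower value. It was -1.58 ± 0.20 with IL-4 (2.98-fold, limma adjusted p = 8.3e-06) and -1.84 ± 0.20 with both (3.57-fold, limma adjusted p = 2.27e-06). The difference did not pass a test of change by IL-4 under RSG (0.16, 95% interval -0.44 to 0.76) or by RSG under IL-4 (-0.26, interval -0.85 to 0.34).

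Pla2g7 also rose with IL-4 in cells of both genotypes that received RSG. The rise was 0.65 ± 0.20 in WT cells (1.57-fold, limma adjusted p = 0.0311) and 0.81 ± 0.20 in KO cells (1.75-fold, limma adjusted p = 0.0163). Of all probe sets, 13.5% were called in either direction for this response in WT cells and 6.83% in KO cells, and Pla2g7 was the 1 of the 8 called in each. Both calls were lost when only the arrays compared were fitted (adjusted p = 0.165 in WT and 0.0935 in KO). The WT call was also lost under quantile normalization (0.39, adjusted p = 0.321) and without mouse 1 (0.108), mouse 2 (0.189), mouse 5 (0.0719) or mouse 6 (0.0646). The KO call was lost without mouse 4 (0.0735), mouse 5 (0.18) or mouse 6 (0.129). With IL-4 present, RSG moved none of the 8 past the threshold in either genotype, where 0.688% of all probe sets were called in WT cells and 0.515% in KO cells. The 8 RSG responses lay between -0.39 and 0.18 in WT cells and between -0.20 and 0.31 in KO cells.

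Atp10d had the widest difference of the 4 genes in each condition outside rest. Its log2 ratio at rest was 1.18, 1.49 and 1.35 in WT mice and -1.38, -1.39 and -1.01 in KO mice. With RSG it was 1.12, 1.27 and 1.29 in WT cells and -0.94, -1.09 and -1.42 in KO cells. With IL-4 it was 0.83, 0.56 and 0.86 in WT cells and -1.37, -1.60 and -0.97 in KO cells. All 12 WT arrays were above all 12 KO arrays, the closest being 0.56 and -0.94, both outside rest. The resting arrays, which chose the gene, are among them. With IL-4 and RSG the WT values were 0.80, 0.92 and 0.93 and the KO values -1.78, -1.19 and -1.05.

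The Atp10d difference was -2.60 at rest. It was -2.38 ± 0.19 with RSG (5.19-fold lower, limma adjusted p = 5.49e-06), -2.06 ± 0.19 with IL-4 (4.18-fold, limma adjusted p = 2.79e-07) and -2.22 ± 0.19 with both (4.67-fold, limma adjusted p = 1.85e-07). IL-4 under RSG moved the WT level by -0.34 ± 0.19 and the KO level by -0.19 ± 0.19, and neither passed the test. Under quantile normalization the WT value became -0.66 (adjusted p = 0.039). RefSeq lists Atp10d as a transcribed pseudogene in this C57BL/6J assembly, and the probe set reads its transcript, not a protein. A backcross history of the KO mice was not given in the sources used here, and whether the DNA of the genotypes differs under the probes of Atp10d, Rnf41 or any other gene was not tested, so a KO minus WT difference is one of probe signal.

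**Figure D1:**
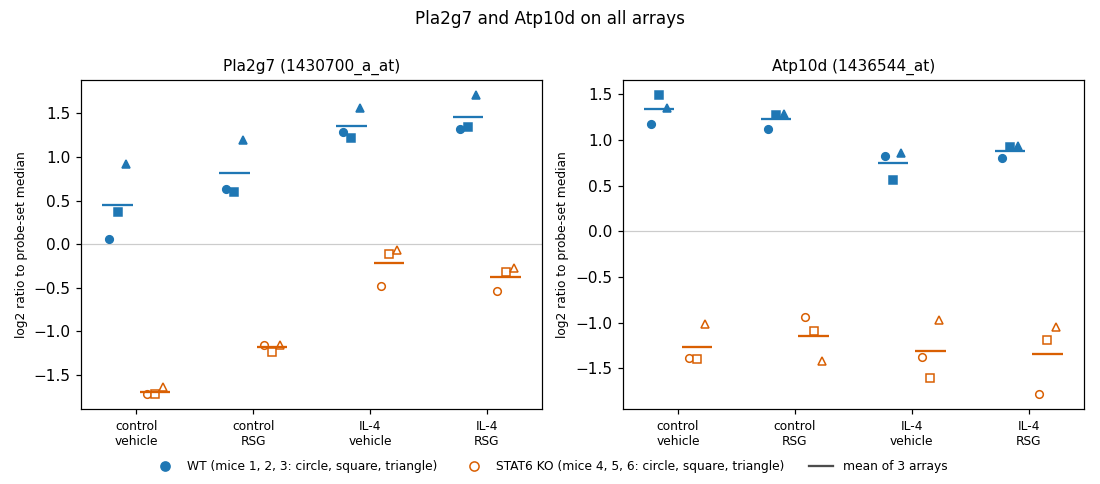
Log2 ratio of Pla2g7 (left) and Atp10d (right) to the probe set's median on each of 24 arrays, by condition, with WT filled, STAT6 KO open, a symbol for each mouse and a line for the mean of 3. In both panels every WT array lies above every KO array, the resting arrays that chose the genes included. Both genotypes sit higher for Pla2g7 with IL-4 than at rest, which was not tested because the resting arrays chose the gene.

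Rnf41 was lower in KO cells by 2 probe sets in all conditions and less clearly by the other 2. The value of 1432003_a_at at rest was 0.77, 0.77 and 0.45 in WT mice and -0.93, -0.60 and -0.62 in KO mice. With RSG it was 0.42, 0.47 and 0.83 against -0.62, -0.75 and -0.67, and with IL-4 it was 1.15, 1.12 and 0.84 against -1.13, -0.86 and -0.60. No KO array of this probe set reached any WT array, the resting arrays that chose the gene included. Its difference was -1.38 at rest, -1.26 ± 0.16 with RSG (2.39-fold, limma adjusted p = 0.00187), -1.90 ± 0.16 with IL-4 (3.74-fold, adjusted p = 8.72e-08) and -1.56 ± 0.16 with both (2.94-fold, adjusted p = 1.45e-06).

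The probe set 1455763_at, which had the largest Rnf41 difference at rest and stands for the gene where 1 probe set is needed, gave the same direction. In KO cells it was -0.78, -1.99 and -0.56 at rest and -1.63, -1.73 and -1.40 with RSG, and with IL-4 it was -0.91, 0.01 and -1.26. The WT values were 0.90, 0.72 and 0.70 at rest, 0.64, 0.70 and -0.01 with RSG and 1.21, 1.02 and 1.07 with IL-4. The groups did not overlap within a condition, including rest, which chose the gene. Even so, the KO value of mouse 5 with IL-4 lay just above the WT value of mouse 3 with RSG. The difference was -1.89 at rest, -2.03 ± 0.32 with RSG (4.08-fold, limma adjusted p = 0.0165), -1.82 ± 0.32 with IL-4 (3.53-fold, adjusted p = 0.000231) and -1.72 ± 0.32 with both (3.3-fold, adjusted p = 0.000504).

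The other 2 Rnf41 probe sets gave a partial picture. The difference of 1423842_a_at was -0.80 at rest and -0.84 ± 0.12 with IL-4 (1.79-fold, limma adjusted p = 2.47e-05), which fell under 1.5-fold with quantile normalization (-0.54). With RSG it was -0.51 ± 0.12 (adjusted p = 0.114) and with both -0.52 ± 0.12, which passed on p (0.00273) but was under 1.5-fold. Its WT values ran from 0.06 to 0.55 and its KO values from -0.65 to -0.07. They did not overlap over all 24 arrays, the resting ones that chose the gene included. The fourth probe set, 1453633_a_at, had an SE of 0.66 and KO values from -2.63 to 0.37, and its differences of -0.44, -1.27 and -1.39 outside rest did not pass the test. Across the 24 arrays the 4 Rnf41 probe sets correlated with each other at r from 0.55 to 0.89, as a description in which all points share the genotype.

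**Figure D2:**
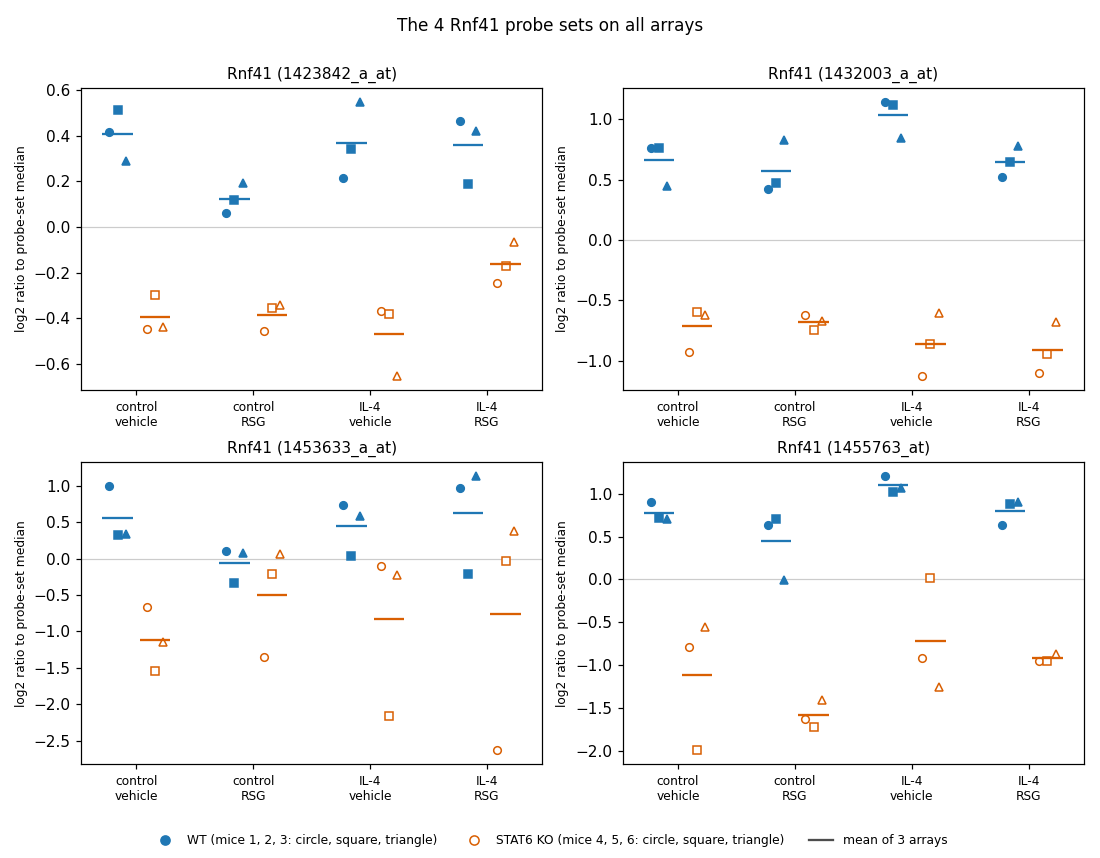
Log2 ratio of the 4 Rnf41 probe sets on each array, by condition, drawn as for Pla2g7, with a separate vertical scale in each panel. The panels of 1423842_a_at and 1432003_a_at show no overlap of genotypes, the resting arrays that chose the gene included. The panel of 1453633_a_at shows KO arrays from -2.63 to 0.37.

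Prdx2 was not lower at rest but higher in KO cells, and only by 1 of its 2 probe sets. The value of 1430979_a_at at rest was -0.11, -0.16 and -0.16 in WT mice and 0.67, 0.86 and 0.69 in KO mice. With RSG it was -0.17, -0.18 and -0.11 against 0.51, 0.24 and 0.54, still without overlap. With IL-4 it was -0.14, -0.06 and 0.25 against -0.12, 0.15 and 0.20, so that the groups overlapped. The difference was 0.88 at rest, 0.59 ± 0.13 with RSG (1.5-fold, limma adjusted p = 0.109), 0.06 ± 0.13 with IL-4 (95% interval -0.22 to 0.33) and 0.10 ± 0.13 with both (interval -0.18 to 0.37). The RSG difference passed under quantile normalization (0.77, adjusted p = 0.00667) and with arrays centred on their median (0.66, adjusted p = 0.0373). The change of the difference by IL-4 under RSG was -0.49 ± 0.19 (adjusted p = 0.102).

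The second Prdx2 probe set, 1418506_a_at, had a difference of 0.02 at rest and was lower in KO cells with IL-4. At rest it was 0.27, 0.05 and -0.08 in WT mice and -0.05, 0.22 and 0.12 in KO mice, and with RSG -0.05, -0.10 and -0.08 against 0.04, -0.17 and 0.08. With IL-4 it was 0.51, 0.57 and 0.60 against -0.28, -0.18 and -0.19, and with both 0.32, 0.39 and 0.48 against -0.31, -0.15 and -0.04. The groups overlapped without IL-4 and did not overlap with it. The difference was 0.06 ± 0.11 with RSG, -0.77 ± 0.11 with IL-4 (1.71-fold, limma adjusted p = 3.69e-05) and -0.56 ± 0.11 with both (1.47-fold, adjusted p = 0.00105). The IL-4 difference fell under 1.5-fold with arrays centred on their median (-0.56) and under quantile normalization (-0.46).

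The change of the Prdx2 1418506_a_at difference by IL-4 under RSG was -0.62 ± 0.16 (limma adjusted p = 0.0161), the 1 call among the 8 probe sets in a test that called 11.2% of all. It was lost without mouse 2 (adjusted p = 0.101), mouse 3 (0.0848), mouse 4 (0.0903) or mouse 6 (0.0569) and with the compared arrays only (0.0714) or without the 2 stromal-high arrays described below (0.0522). It fell under 1.5-fold with centring (-0.52) and quantile normalization (-0.50). RSG with IL-4 present changed the difference of none of the 8, where 0.362% of all probe sets were called, and the 8 changes lay between -0.26 and 0.35. The 2 Prdx2 probe sets correlated at r = -0.02 over the 24 arrays, and their genotype differences did not share a direction across conditions. The change of that difference by IL-4 under RSG was negative in both, at -0.62 and, for 1430979_a_at, at -0.49, which was not called.

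**Figure D3:**
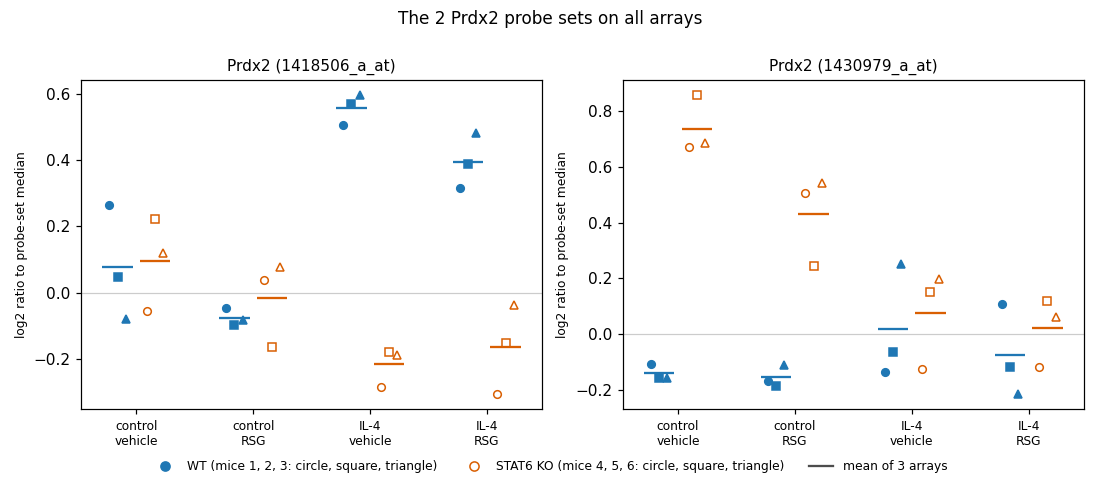
Log2 ratio of the 2 Prdx2 probe sets on each array, by condition, drawn as for Pla2g7, with a separate vertical scale in each panel. In 1430979_a_at the KO arrays are above the WT arrays at rest and with RSG and mix with them under IL-4, and in 1418506_a_at they mix without IL-4 and lie below with it.

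Taking the 8 probe sets as a list, 4 were called lower in KO cells with RSG alone and none higher, where 0.0733% of all probe sets were called lower and 0.0266% higher. With IL-4 alone 6 were called lower, against 17.3% of all probe sets called lower and 6.94% higher. With IL-4 and RSG 4 were called lower, against 14.2% lower and 5.79% higher. The median difference of the 8 was -0.88, -1.43 and -1.47 in these 3 conditions, and that of all probe sets was -0.09, -0.25 and -0.19. The groups did not overlap for 6, 7 and 6 of the 8, and for 15.1%, 42.5% and 38.9% of all. The condition with RSG alone had the lowest background of the 3. Of the 8 probe sets, 4 are of Rnf41 and correlate with each other, so the 8 are not independent. The genes were chosen for a difference between the same mice, with earlier results of these data known. The counts and medians are therefore a description.

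With RSG alone the 4 calls, of Pla2g7, Atp10d and 2 Rnf41 probe sets, depended on the spread shared by all groups. The methods' t-test on the same values called none of the 8. With only the 6 arrays compared, limma called no probe set at all (2951 at an unadjusted p under 0.05), and the adjusted p was 0.194 for Pla2g7, 0.0994 for Atp10d and 0.263 and 0.237 for Rnf41 1432003_a_at and 1455763_at. Rnf41 1455763_at was also lost without mouse 1 (0.189), mouse 2 (0.15), mouse 4 (0.0925) or mouse 6 (0.0506), and 1432003_a_at without mouse 5 (0.0642). Pla2g7 and Atp10d kept their calls whichever 1 mouse was left out.

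The cultures also differed in other cells' markers. With RSG alone, the mean log2 ratio of 27 probe sets for 12 stromal genes was 1.19, 1.18 and 4.45 in KO cultures and -0.26, 0.56 and -0.35 in WT cultures. None of the 27 was called in that condition, where 0.0733% of all probe sets were called lower and 0.0266% higher. Nothing is read from that absence, and the median difference of the 27 was 2.83, beside -0.09 for all. With IL-4, the mean of 11 neutrophil and granule precursor genes was 3.24 to 3.62 in KO and -3.95 to -3.19 in WT cultures. All 11 were called higher in KO cells. Of all probe sets, 6.94% were called higher and 17.3% lower with IL-4, and 5.79% and 14.2% with IL-4 and RSG. The mean of 15 mast cell and basophil probe sets was 4.36 to 4.93 against -0.66 to -0.15, and that of 9 lymphocyte probe sets 3.51 to 4.06 against -0.35 to 1.00. Of 5 eosinophil probe sets, 2 were higher in KO cells with IL-4 and none lower. The erythroid and megakaryocyte mean, which bears on Prdx2, overlapped, at -0.46 to 0.49 in KO and -0.28 to 0.10 in WT cultures with IL-4, and 3 of its 9 probe sets, of Itga2b, Gata1 and Pf4, were called higher in KO cells and none lower, with or without RSG beside IL-4. As the values are ratios, whether a marker was expressed at all cannot be read from them. Of 12 probe sets of macrophage markers, none was called with RSG alone, from which nothing is read either. With IL-4, 4 of them were higher and 2 lower in KO cells, beside the shares of all probe sets given above. The part of these cells in the differences of the 4 genes was not tested. Without the 2 arrays with the highest stromal means (WT mouse 2 at rest, 2.76, and KO mouse 6 with RSG, 4.45) Pla2g7, Atp10d and Rnf41 1432003_a_at kept their RSG calls and Rnf41 1455763_at did not (-2.12, adjusted p = 0.0633), and the KO arrays left with RSG still had higher stromal means than the WT arrays.

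**Figure D4:**
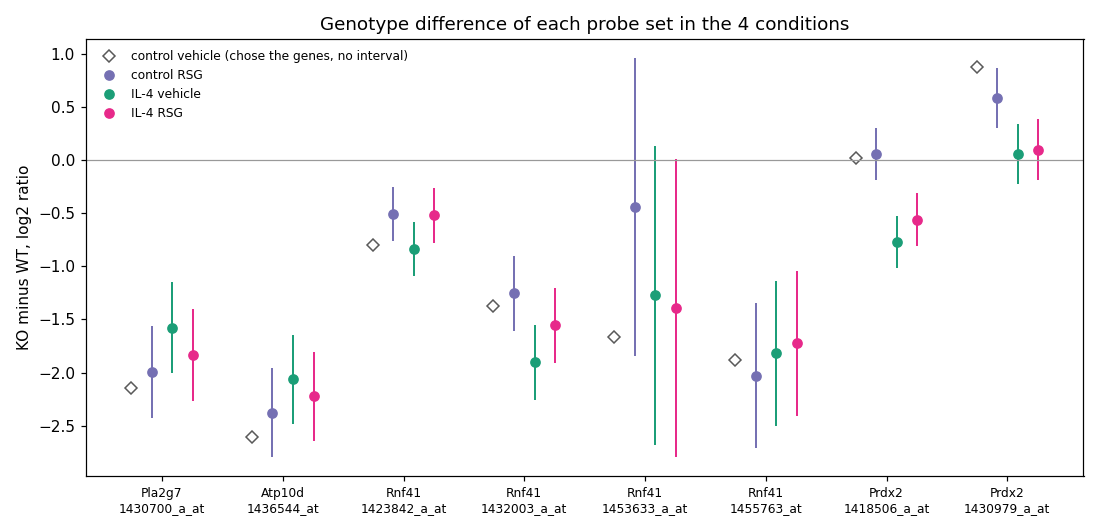
KO minus WT difference in log2 ratio for each of the 8 probe sets in 4 conditions, with the 95% interval of the limma fit for the 3 tested ones and an open diamond, with no interval, for the condition that chose the genes. Pla2g7, Atp10d, Rnf41 1432003_a_at and 1455763_at stay below 0 throughout, and the Prdx2 probe sets part from each other.

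Outside the 4 genes and Stat6, 41 probe sets of 30 named genes or of none were called at rest. Of these, 13 were called in the same direction with RSG alone, 26 with IL-4 and 29 with both, and 11 (26.8%) in all 3. Of the 6 called probe sets of the 4 genes the counts were 4, 5 and 4, and 4 in all 3. Since the 4 genes were chosen with these data known, the shares are a description.

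Lists of genes with related roles were read in the same contrasts. With RSG alone no probe set was called for PAF and lysophospholipid enzymes (29 probe sets), P4-ATPases and their subunits (39), peroxide and thioredoxin enzymes (45) or partners and substrates of RNF41 (26). Their median differences were -0.20, -0.13, -0.11 and -0.16, beside -0.09 for all. With 0.0733% of all probe sets called lower and 0.0266% higher, nothing is read from the absence of calls in these lists. In the IL-4 receptor pathway 2 of 23 were called, both of Stat6.

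With IL-4 alone, calls in these lists stood beside 17.3% of all probe sets lower and 6.94% higher in KO cells, and nothing particular to a list is read from them. In this condition, 18 PAF and lysophospholipid probe sets were lower in KO cells and 5 higher, among them Lpcat2, which makes PAF (2.63), and the phospholipases Pla2g15 (-1.74), Pla2g12a (-1.51) and Pla2g6 (-1.49). Of the P4-ATPase probe sets 10 were higher and 7 lower, with Atp8a2 at -4.57, the P4-ATPase subunit gene Tmem30b at -3.42, Atp10a at 2.26 and Atp8b2 at 1.94. Of the peroxide and thioredoxin probe sets 5 were higher and 20 lower, including the plasma glutathione peroxidase gene Gpx3 (4.03), the thioredoxin reductase gene Txnrd3 (-3.82), the thioredoxin inhibitor gene Txnip (-2.24) and Gpx4 (-1.43), which detoxifies lipid peroxides. Of the RNF41 partner probe sets 1 was higher (Birc6, 0.86) and 4 lower, with the cytokine receptor chain genes Csf2rb at -1.29 and Csf2rb2 at -0.99. Of the IL-4 receptor pathway 10 were higher and 5 lower, with Socs3, a feedback inhibitor, at 5.18, Il13ra1 at 2.26 and Jak1 at -1.82. With IL-4 and RSG the counts, higher and lower, were 4 and 13, 7 and 5, 2 and 14, 0 and 7, and 9 and 4 in the same order.

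Genes beside the 4 genes on the chromosome were not called with RSG alone or at rest. Of all probe sets, 0.0733% were called lower and 0.0266% higher with RSG, and 0.109% at rest. With shares this low, nothing is read from the absence of calls among neighbours. Among the 10 measured genes on each side of Pla2g7, Atp10d, Prdx2, Rnf41 and Stat6, 38, 42, 32, 38 and 27 probe sets were tested. With IL-4 alone, 5 were higher and 7 lower around Pla2g7, 3 and 8 around Atp10d, 1 and 8 around Prdx2, 2 and 8 around Rnf41, and 0 and 2 around Stat6, beside the same 17.3% and 6.94% of all probe sets, so nothing particular to these stretches is read from the counts. Rnf41 lies on chromosome 10 with Stat6, 33 measured genes away, whereas Pla2g7 is on chromosome 17, Atp10d on chromosome 5 and Prdx2 on chromosome 8. Called in both IL-4 conditions were Cenpq, Mmut, Cd2ap, Cyp39a1 and Cdc5l near Pla2g7, Yipf7, Gnpda2, Nfxl1, Txk and Ociad1 near Atp10d, Syce2, Get3, Dhps and Man2b1 near Prdx2, Cnpy2 and Esyt1 near Rnf41, and Lrp1 beside Stat6. Cd2ap encodes an adaptor of the actin cytoskeleton. By 1420908_at its differences were -1.59 at rest, -1.41 with RSG, -1.80 with IL-4 and -2.18 with both, and the last 2 were called. In the same order they were -1.44, -1.34, -1.54 and -2.14 by 1420906_at, with the last 2 called as well. The remaining Cd2ap probe set gave smaller differences of -0.20, -0.28, -0.33 and -0.65, and only the last was called. The genes directly beside Rnf41, Nabp2 and Smarcc2, were named for their place after their values were seen, and their differences of -0.20 and -0.05 with RSG did not pass the test.

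**Figure D5:**
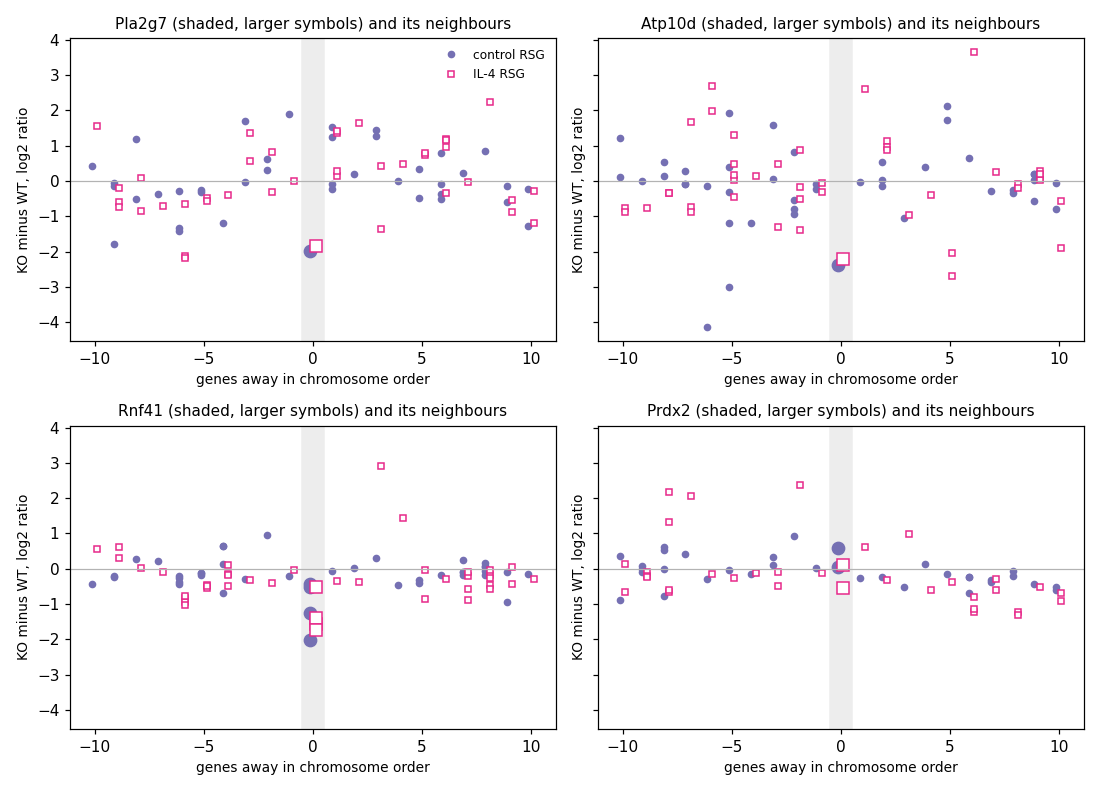
KO minus WT difference in log2 ratio of probe sets for the 10 measured genes on each side of the 4 genes, against their order on the chromosome, with control RSG in filled circles and IL-4 RSG in open squares. The larger symbols in the shaded band are the gene itself. In control RSG no neighbour was called, where 0.0733% of all probe sets were called lower and 0.0266% higher.

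The genes whose log2 ratios over all 24 arrays were most like each lead probe set were found by Pearson's r, with no p. For Atp10d they were Stat6 itself (r = 0.97), Rnf41 (0.94) and Gdf3 (0.92). Gdf3 encodes a TGFβ family ligand, and its KO minus WT difference with RSG alone was -4.17 on the log2 scale. For Rnf41 they were Stat6 (0.91), the MHC class I gene H2-D1 (0.90) and 1810014B01Rik (0.90). For Pla2g7 they were the splicing factor gene Srsf2 (0.94), the MHC class I gene H2-K1 (0.93) and Dnajc21 (0.92), and the H2-K1 probe set may also read other class I genes. For Prdx2 they were Tbc1d9b (0.78), Sgcb (0.78) and H2aw (0.75), with lower values of r. All points share the genotype groups.

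With IL-4 alone, the median difference of -0.25 over all probe sets became -0.03 with arrays centred on their median and -0.06 under quantile normalization. The calls of 3126 higher and 7794 lower became 4208 and 4811 in the first and 3062 and 3956 in the second. Pla2g7, Atp10d and Rnf41 1432003_a_at and 1455763_at kept their calls under both, and with IL-4 and RSG as well.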

How the data were processed

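Total RNA was hybridised to Affymetrix whole-genome mouse arrays. The deposited values are ratios: the authors ran GCOS and GC-RMA on the scans, brought the arrays to a common median and expressed every probe set relative to its own median, and a division by the vehicle control named in the methods is not in these values. Array number, not depth, limits the precision.

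Ratios were log2-transformed here. After 64 Affymetrix controls were left out, 45037 probe sets were tested (34945 with 1 symbol, 932 with several, 9160 with none, and 34741 of those with 1 symbol, all 4 genes included, matched RefSeq by identifier). limma 3.58.1 in R 4.3.3 fitted 8 group means to 24 arrays (lmFit and eBayes, without a variance trend, 16 residual and 1.355 prior degrees of freedom), two-sided, tested on simulated data first. The 9 contrasts tested were 3 genotype differences, 2 changes of it and 4 responses. Members and lists were chosen with earlier results of these data known, as was the choice to fit no trend, which an earlier treatment of these data used.

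Named genes were the members, Stat6, up to 4 called genes of a list by size, neighbours called in 2 contrasts and the 3 most alike. The 4 cultures taken as 1 mouse share a number by label. After group means were removed, their 36 pairs correlated between -0.02 and 0.05, with a mean of 0.01. Alternatives were the mouse as a block, a trend, quantile normalization, centring, compared arrays only, a filter on the median, 2 stromal-high arrays or 1 mouse left out, and the methods' t-test.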

Additional observations from a re-analysis of the deposited data

Results flagged for a closer look

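The genotype difference of Prdx2 1418506_a_at moved by -0.62 ± 0.16 (log2) between cultures with and without IL-4, in the presence of RSG, and this was called by the test of that change itself (limma adjusted p = 0.0161). It was 1 call among 8 probe sets, beside 11.2% of all called, and it was lost under quantile normalization, centring, compared arrays only, without the 2 stromal-high arrays, and without mouse 2, 3, 4 or 6. The difference was 0.06 without IL-4 and -0.56 with it. The other Prdx2 probe set moved by -0.49 ± 0.19 and did not pass (adjusted p = 0.102).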

How the results depend on the processing

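With the mouse as a replicate block, the number of calls among the 8 probe sets was unchanged in each of the 9 tests, and with RSG alone 48 probe sets were called in all beside 45 without the block. A variance trend and the filter on a median of 1 left each count among the 8 unchanged. Counts below are of calls by the setting named, first among the 8 and then among all probe sets; the cause of a change was not tested. For the genotype difference with RSG alone, the 8 gave 0 and all gave 0 with the compared arrays only, 0 and 2 by the methods' t-test, and all gave 90 under quantile normalization and 25 without the 2 stromal-high arrays. With IL-4 alone all gave 7018 under quantile normalization. For the change by IL-4 under RSG, the 8 gave 0 under quantile normalization, centring, compared arrays only (3238 of all) and without the stromal-high arrays. For the change by RSG under IL-4, all gave 43 under quantile normalization and 75 with compared arrays only. For the IL-4 response the 8 gave 0 with compared arrays only (3578 of all in WT, 745 in KO) and by the methods' t-test (3723 and 562). For the RSG response all gave 191 in WT under quantile normalization, 0 in both genotypes with compared arrays only, and 0 in WT and 1 in KO by the methods' t-test. Unadjusted p was under 0.05 for 3740 and 3363 probe sets in the first of these and 4181 in WT in the second.

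Leaving out 1 mouse at a time, all gave 14 to 51 for the difference with RSG alone, 3086 to 3890 for the change by IL-4, 30 to 132 for the change by RSG, 1414 to 2978 for the IL-4 response in KO cells, and 116 to 262 and 78 to 233 for the RSG response in WT and KO cells. The 8 gave 0 to 1 for the change by IL-4 and for the IL-4 response in each genotype. Directions that turned were of values that passed no test. The change by IL-4 of Rnf41 1423842_a_at was -0.01 and became 0.24 under quantile normalization, 0.089 with centring and 0.01 without the stromal-high arrays. The WT IL-4 response of Rnf41 1432003_a_at became -0.15 under quantile normalization, and the KO response of 1453633_a_at became 0.017 without the stromal-high arrays. Without 1 mouse, the IL-4-alone difference of Prdx2 1430979_a_at ran from -0.019 to 0.18 and its WT IL-4 response from -0.017 to 0.17. The change by IL-4 ran from -0.13 to 0.48 for Atp10d and from -0.093 to 0.074 for Rnf41 1423842_a_at, and the KO IL-4 response from -0.48 to 0.14 for Atp10d and from -0.55 to 0.24 for Rnf41 1453633_a_at. The RSG changes and responses of single probe sets were recomputed as counts only, and none of the 8 was called in any setting.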
